A study of Mus musculus with 8 samples.

Results

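The let-7 family 3p arms are the small RNAs cut from the 3′ side of the let-7 hairpins and of the closely related miR-98 hairpin. All names that begin with let-7 and end in -3p were taken, together with miR-98-3p, which gave 11 of the 862 miRNA names listed in 8 mouse liver libraries. The 10 described in full were chosen by their reads summed over the 8 libraries: let-7c-1-3p was the last one in with 21 reads, and let-7a-2-3p was left outside with 4.

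A let-7 hairpin is processed into a duplex of a 5p and a 3p strand, and usually the 5p strand is loaded into an Argonaute protein while the 3p strand, often called the passenger or star strand, is mostly degraded. The 5p strands are among the most conserved animal miRNAs. They are known for holding back growth and stem cell genes, and in liver have been tied to glucose metabolism. Their production from the hairpin is blocked by the RNA-binding protein Lin28. A miRNA recognises its targets mainly through its seed, bases 2 to 8 from the 5′ end, so the 3p strands would pair with other targets than the 5p strands do.

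The mice were male wild-type C57BL/6J animals aged 8 weeks at the start and caged singly. For 12 weeks they either ate ad libitum (AL) or were calorie restricted (CR), with food cut by 20% in the first week and by 40% in the other 11 weeks. Whole liver was sequenced as 1 library per diet, each from 3 RNA samples mixed in equal amounts. Mitochondria, purified as mitoplasts (mitochondria stripped of their outer membrane) by differential centrifugation, were sequenced as 3 libraries per diet, and the labels leave unsaid whether each came from a different animal. The p-values below therefore cover the spread between libraries only, which may be technical.

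The pools held 2431564 (AL) and 3242002 (CR) miRNA reads and the mitochondrial libraries 1070762 to 1577691. Levels are in RPM, reads scaled to a library total of 1000000 miRNA reads, where 1 read was worth 0.308 to 0.934 RPM. Hepatocyte miRNAs (7 of 7 listed markers, none at 0) summed to 499100 to 751948 RPM in every library. Pancreas miRNAs summed to 98.9 RPM in CR mitochondrial replicate 2 and to 2.11 to 6.17 RPM in the other libraries. Intervals given below are exact 95% Clopper-Pearson intervals and cover counting error only.

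The mature sequences show which 3p arms share a seed, in capitals, and how that seed differs from the one of the 5p arms, represented by let-7d-5p. They come from RefSeq (GRCm38.p6), written 5′ to 3′, and all 11 equal the deposited sequences.
let-7d-3p: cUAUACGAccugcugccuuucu
let-7a-1-3p: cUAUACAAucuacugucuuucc
let-7b-3p: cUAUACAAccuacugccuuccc
miR-98-3p: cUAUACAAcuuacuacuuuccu
let-7g-3p: aCUGUACAggccacugccuugc
let-7c-1-3p: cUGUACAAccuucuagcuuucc
let-7d-5p: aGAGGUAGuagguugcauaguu
The seed UAUACAA was shared by 4 members, let-7a-1-3p, let-7b-3p, let-7f-1-3p and miR-98-3p. The other 7 each had a seed of their own, so the 11 members held 8 seeds, while the 5p arms from let-7a to let-7i and miR-98-5p all carried GAGGUAG. No other name in the files had the seed of a member. The let-7g-3p sequence begins 1 base further upstream than the others when aligned, which shifts its seed to CUGUACA; 17 bases then match let-7i-3p. Of its 22 bases, let-7d-3p matched 18 of let-7b-3p, 17 of let-7a-1-3p and 16 of miR-98-3p. A read of the let-7a-1-3p sequence cannot be assigned to 1 hairpin, since Mirlet7c-2 holds the same sequence.

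The hairpins of let-7d, let-7g and miR-98, the sources of the arms on which the results turn, are given next with the 3p arm in capitals (RefSeq, GRCm38.p6, 5′ to 3′).
Mirlet7d, chr13:48536012-48536114, minus strand: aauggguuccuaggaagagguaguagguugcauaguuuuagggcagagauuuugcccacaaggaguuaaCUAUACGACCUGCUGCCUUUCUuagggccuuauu
Mirlet7g, chr9:106178840-106178927, plus strand: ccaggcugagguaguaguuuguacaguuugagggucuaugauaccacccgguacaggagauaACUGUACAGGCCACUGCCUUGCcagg
Mir98, chrX:151913214-151913321, plus strand: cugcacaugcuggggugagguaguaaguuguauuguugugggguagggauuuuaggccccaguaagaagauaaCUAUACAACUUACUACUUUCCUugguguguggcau
In the GENCODE M21 annotation of GRCm38, Mirlet7d lies in an exon of the long noncoding RNA 6720427I07Rik, as do Mirlet7a-1 and Mirlet7f-1. Mirlet7g lies in an intron of Wdr82, which encodes a subunit of a histone methyltransferase complex. Mir98 lies with Mirlet7f-2 in Huwe1, the gene of a ubiquitin ligase, and both are intronic. Mirlet7c-1 (chr16:77599657-77599750, plus strand) is intronic in Mir99ahg.

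let-7d-3p made up most of the family's 3p reads. The 11 members had 4197 reads over the 8 libraries, and 2831 of them (67.5%) were let-7d-3p. In the AL and CR pools its level was 185 and 143 RPM. In mitochondria it was 380.3, 361 and 346 RPM in the 3 AL libraries and 178, 176 and 120 RPM in the 3 CR libraries. The 3 AL mitochondrial libraries thus lay above all 5 others, and CR mitochondria lay around the level of the pools. let-7a-1-3p came next in the pools with 56.3 and 58.0 RPM. In mitochondria it had 92.3, 31.0 and 59.1 RPM under AL and 48.3, 33.6 and 34.6 RPM under CR, so its groups overlapped.

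The order of the lower members differed between the fractions. let-7g-3p was near the bottom of the pools, with 2 reads in each (0.823 and 0.617 RPM). In mitochondria it reached 12.0, 21.0 and 25.3 RPM under AL and 20.0, 38.0 and 27.1 RPM under CR, above let-7a-1-3p in CR replicate 2. let-7f-2-3p, let-7i-3p and let-7b-3p lay between 2.74 and 19.4 RPM over all libraries, and their ranges overlapped one another. let-7e-3p lay between 0 and 6.99 RPM and let-7f-1-3p between 0.934 and 6.46 RPM.

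miR-98-3p had no read in the AL pool and 1 read in the CR pool. In mitochondria it had 3.69, 2.74 and 4.22 RPM under AL and 3.33, 6.97 and 5.60 RPM under CR, each from 3 to 11 reads. let-7c-1-3p showed 5 and 4 reads in the pools, 2, 4 and 5 reads in AL mitochondria, and 0, 1 and 0 reads in CR mitochondria. let-7a-2-3p had at most 2 reads in any library. At 3 reads, the level that a count of 0 still allows was 0.925 to 2.80 RPM, so the lowest members sat near the limit of detection.

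**Figure D1:**
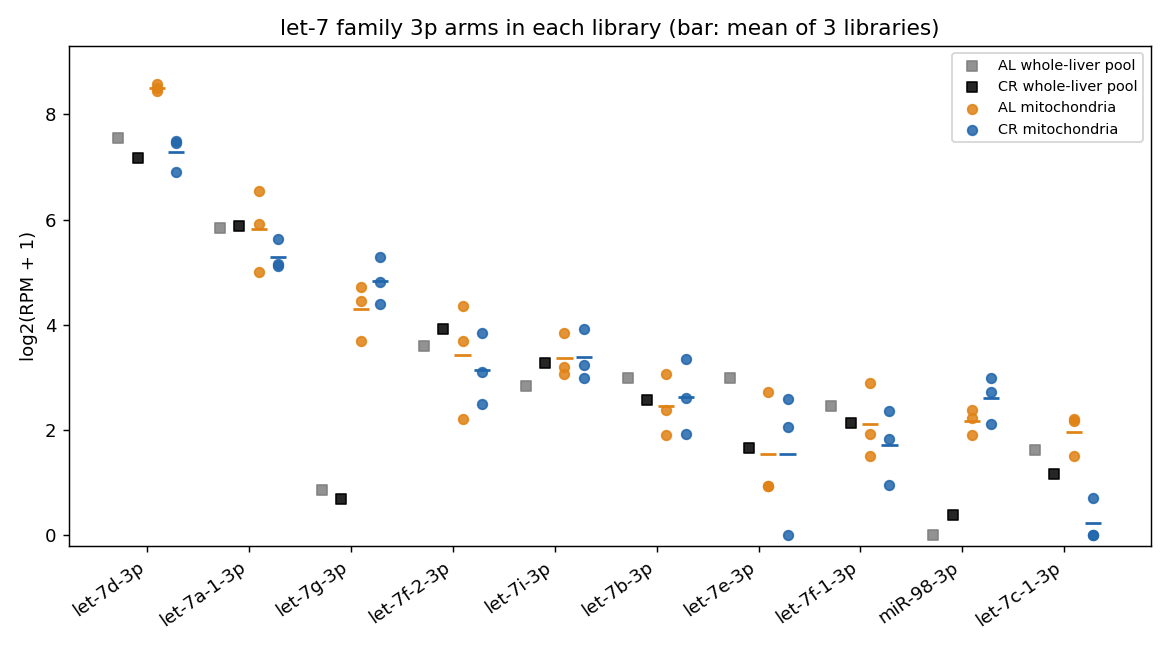
Level of each of the 10 most abundant let-7 family 3p arms, as log2(RPM + 1), in the 2 whole-liver pools (squares) and the 6 mitochondrial libraries (circles); horizontal bars are means of 3 libraries. let-7d-3p is highest throughout and its 3 AL mitochondrial points stand above its other 5, while let-7g-3p and miR-98-3p are near 0 only in the pools.

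The first comparison asked whether mitochondrial levels differed between the diets. The mean of let-7d-3p was 362 ± 17.3 RPM (SD, n = 3) under AL and 158 ± 33.1 RPM (SD, n = 3) under CR, and the groups did not overlap. Fitted on log2(RPM + 1) with limma, the CR minus AL difference was -1.22 (SE 0.33), a 2.32-fold lower level under CR. Its adjusted p of 0.0776 by limma was the 8th smallest among 417 tested names and missed the threshold of 0.05. On recovered reads, DESeq2 called it lower (-0.97, adjusted p = 0.0490), with 0.959% of all names called lower and 1.2% higher, and edgeR did not (-0.89, adjusted p = 0.181). Over 17 alternatives the difference lay between -1.32 and -0.89 and the adjusted p between 0.0467 and 0.337.

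Some markers of other cells were also lower under CR. Of 16 leukocyte, stellate cell, endothelial and erythroid miRNAs, 5 had all 3 CR below all 3 AL mitochondrial libraries, 1 had them above and 10 overlapped, where 13.9% of all tested names had CR lower and 5.04% higher without overlap. Only miR-199a-3p of the 16 passed the threshold in limma. miR-146a-5p and miR-142a-5p, 2 of the 6 leukocyte and Kupffer cell miRNAs, were among the 5, and miR-150-5p was the 1 above. The 6 summed to 8026 to 11012 RPM in AL mitochondria, 2959 to 4840 RPM in CR mitochondria, and 1029 and 710 RPM in the AL and CR pools, with none at 0. Most of that sum was miR-146a-5p. The other 5 summed to 270.3 to 417 RPM in AL mitochondria, 197 to 261 RPM in CR mitochondria, and 398 and 320 RPM in the pools, so without it AL mitochondria lay around the pools. The remaining 3 of the 5 lower names were miR-199a-3p, miR-199a-5p and miR-214-3p, stellate cell and fibroblast miRNAs. The 5 miRNAs of that list summed to 35423 to 47282 RPM in AL and 25517 to 44533 RPM in CR mitochondria, with none at 0. Most of that sum was miR-143-3p, with 32532 to 44651 RPM in AL and 24372.5 to 43460 RPM in CR mitochondria. It overlapped between the diets, as did miR-145a-5p. In contrast, miR-199a-3p had 1532 to 2234 RPM in AL and 544 to 689 RPM in CR mitochondria. For miR-199a-5p the levels were 335 to 346 RPM and 113 to 185 RPM. The part of these cells in the let-7d-3p difference was not tested, and in bulk libraries fewer cells of a type and less RNA per cell cannot be told apart. The endothelial pair summed to 6694 to 9437 RPM in AL and 6707 to 18066 RPM in CR mitochondria. The 3 erythroid miRNAs summed to 41.5 to 63.9 and 45.6 to 75.8 RPM, so both of these lists overlapped between the diets. Without CR replicate 2, the library with the pancreas miRNAs, the let-7d-3p difference was -1.30 (limma, adjusted p = 0.0817).

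No member passed the threshold for diet in limma: 0 of the 10 tested members were called, against 0.24% of all tested names called higher and 0.24% called lower, and 2 members, let-7d-3p and let-7c-1-3p, had an unadjusted p under 0.05 (53 of the 417 names did). The same 2 members had non-overlapping diet groups, both with CR lower, where 13.9% of tested names had CR lower without overlap. let-7c-1-3p reached 1 RPM in the pools and in AL mitochondria but in no CR mitochondrial library. As it passed the filter only with its AL libraries, its p and its place in both counts are not independent of the filter. let-7c-1-3p had a fitted difference of -1.73 (SE 0.59, limma, adjusted p = 0.176) from 11 reads in all under AL and 1 under CR; over 15 alternatives that value lay between -2.93 and -0.73. let-7g-3p (0.54, with 0.24 to 0.81 over the alternatives) and miR-98-3p (0.44, 0.25 to 0.85) had positive values. let-7a-1-3p (-0.52, with -0.93 to -0.16) and let-7f-1-3p (-0.40, -0.72 to -0.0009) had negative ones. let-7f-2-3p had -0.27, and let-7b-3p, let-7e-3p and let-7i-3p lay between 0.01 and 0.17. The median over the 10 was -0.13, with 5 on each side of 0, and the median over all tested names was -0.17. The members' median rested on single libraries: it was -0.56 without CR replicate 1 and -0.49 without AL replicate 2, with 2 above and 8 below 0 in both cases, and -0.25 without CR replicate 2, -0.07 without AL replicate 1, 0.0025 without AL replicate 3 and 0.07 without CR replicate 3. The median over all names became 0.01 with TMM factors, 0.03 with DESeq2 size factors and -0.06 with miR-122 left out of the total. The calls over all names were then 4 higher and 1 lower with either set of factors and 3 higher and 1 lower without miR-122, against 1 and 1.

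**Figure D2:**
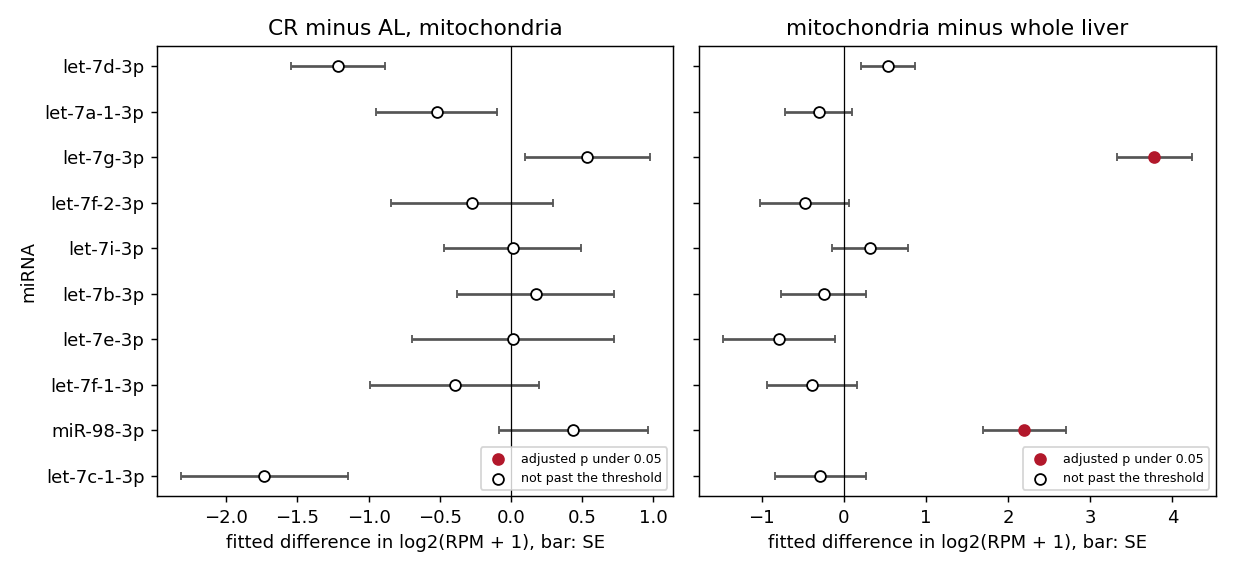
Fitted difference in log2(RPM + 1) of each 3p arm with its standard error, CR minus AL in mitochondria on the left and mitochondria minus whole liver on the right; filled points passed an adjusted p of 0.05 in limma. let-7d-3p (-1.22) and let-7c-1-3p (-1.73) lie furthest left for diet without passing, and let-7g-3p (3.78) and miR-98-3p (2.20) passed for fraction.

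In the whole-liver pools let-7d-3p was also lower under CR, by -0.38 in log2 of the plain ratio (-0.22 with DESeq2 size factors). The CR pool had 0.768 times the AL level (interval 0.673 to 0.877), from 462 and 451 reads. With 1 pool per diet there is no replicate check, and over all names with at least 10 reads in both pools together, 32.5% had an interval wholly below 1 and 16.9% wholly above. The partner strand let-7d-5p went the other way, with a CR to AL ratio of 1.36 (1.30 to 1.43). let-7e-3p had 17 reads in the AL pool and 7 in the CR pool, a ratio of 0.309 (0.108 to 0.784). For let-7a-1-3p, let-7f-2-3p, let-7i-3p, let-7b-3p, let-7f-1-3p and let-7c-1-3p the interval included 1. let-7g-3p and miR-98-3p had too few pool reads for a ratio.

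Whether the diet difference depended on the fraction was tested with an interaction term over all 8 libraries. For let-7d-3p the difference was -0.84 further in mitochondria than in the pools (SE 0.66), with an adjusted p of 0.998 in limma. No member was called, and 0% of all tested names were called in either direction by limma. edgeR and DESeq2 also called none, and 5 names had an unadjusted p under 0.05 in limma, none of them a member. The pools were assumed to vary as the mitochondrial libraries do.

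The second comparison set mitochondria against whole liver over both diets, with diet as a term. With 1 pool per diet, the pools were again assumed to vary as the mitochondrial libraries do. let-7g-3p and miR-98-3p were higher in mitochondria. let-7g-3p rose by 3.78 (SE 0.46, limma, adjusted p = 5.12e-06), the 2nd largest increase of the 417 names. In plain levels, the AL mitochondrial libraries held 24.3 times the AL pool (interval 6.49 to 205) and the CR ones 47.6 times the CR pool (12.9 to 398), the width coming from the 2 reads in each pool. miR-98-3p rose by 2.20 (SE 0.51, limma, adjusted p = 0.00251), the 14th largest increase. AL mitochondria were at least 2.88-fold higher than the floor of 3 reads in the AL pool, and CR mitochondria 17.7 times the CR pool (2.84 to 731), which had 1 read. Every one of the 6 mitochondrial libraries lay above both pools for both arms.

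The filter on low values was passed by let-7g-3p and miR-98-3p only through their mitochondrial libraries. Without any filter both were still called (adjusted p = 0.000518 and 0.0128, limma). Over 15 alternatives the value of let-7g-3p lay between 2.50 and 5.40, and over 14 that of miR-98-3p between 1.0 and 4.99, each called every time. With a filter of 10 RPM miR-98-3p was not tested.

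The 2 calls among 10 tested members, both higher, stood beside 10.6% of all tested names called higher and 21.6% called lower. Likewise 2 members had mitochondrial libraries all above the pools, as did 14.9% of tested names, and none had them all below, as did 27.1%. In both counts the 2 were let-7g-3p and miR-98-3p. As the filter let these in only through their mitochondrial libraries, neither count is independent of it. The fitted value of let-7d-3p was 0.54 (SE 0.33, limma, adjusted p = 0.218), and it depended on the scale. It was called higher with TMM factors (0.97, adjusted p = 0.0177), DESeq2 size factors (0.85, 0.0351) or miR-122 left out of the total (0.96, 0.0326), and by edgeR (0.97, 0.0236) and DESeq2 (0.84, 0.0253). The share of all names called higher was then 18%, 14.9%, 15.8%, 23.3% and 18.8% in the same order. These scales moved the median of all names from -0.31 to 0.01, -0.08 and -0.02 in turn, and changed the calls over all names from 44 higher and 90 lower to 75 and 67, 62 and 72, and 66 and 63. By diet, let-7d-3p in mitochondria was 1.95 times the pool under AL (1.75 to 2.17) and 1.13 times under CR (0.999 to 1.28). The other 7 tested members lay between -0.79 and 0.32 and were not called. let-7f-2-3p, which shares the Huwe1 locus with miR-98-3p, was among them with -0.48 (SE 0.54). The difference between these neighbours was not tested.

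The 5p arms of the family were mostly lower in mitochondria. Of 11 listed 5p names 9 were tested, and 7 fell in mitochondria against whole liver while none rose, beside 21.6% of all names lower, with a median of -1.26. With TMM factors 4 fell (16.1% of all names), with DESeq2 size factors 5 (17.3%) and without miR-122 3 (15.1%). let-7g-5p stood at 34626 and 40482 RPM in the pools. In mitochondria it was 18547, 6451 and 10931 RPM under AL and 9944, 9283 and 5934 RPM under CR, so every mitochondrial library lay below both pools (-1.98, SE 0.40, limma, adjusted p = 0.000821). For diet in mitochondria none of the 9 was called, all 9 fitted values were below 0, and their median was -0.51. That median was -0.24 without AL replicate 1, -0.34 without CR replicate 3, -0.80 without AL replicate 2, -0.29 with TMM factors, -0.27 with DESeq2 size factors, -0.32 in DESeq2 and -0.23 in edgeR. 1 of the 9 was above 0 in edgeR, with DESeq2 size factors, and when AL replicate 1 or CR replicate 3 was left out.

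The miRNAs that share a primary transcript with a let-7 hairpin, of the miR-99, miR-100 and miR-125 families, had 10 of 11 listed names tested against whole liver. In limma 5 were called lower and none higher, beside 21.6% of all names lower and 10.6% higher, with a median of -0.78. With each of the 3 other scales 4 were lower and none higher, and in edgeR 4 were lower and 1 higher (16.8% and 23.3% of all names). None was called for diet.

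Since both arms are read in the same library, the level of the 3p arm relative to the 5p arm hardly depends on how a library is scaled. The exception is the RPM added to each arm before a log2 ratio is fitted. let-7d was the hairpin with the most balanced arms of the family. Its 3p arm took 12.8% of let-7d reads in the AL pool (11.7% to 13.9%) and 7.63% in the CR pool (6.97% to 8.32%). In mitochondria it took 23.4%, 41.4% and 31.8% under AL and 21.6%, 26.7% and 24.0% under CR. All 6 mitochondrial shares lay above both pools, and the diets overlapped. The 5p arm stood at 1266 and 1726 RPM in the pools, at 1247, 511 and 741 RPM in AL mitochondria and at 645, 482 and 378 RPM in CR mitochondria.

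For let-7g the 3p arm was 2 reads against 84195 and 131241 5p reads in the pools, shares of 0.00238% and 0.00152%. In mitochondria the share was 0.0647%, 0.325% and 0.231% under AL and 0.201%, 0.408% and 0.454% under CR. The 5p arm of let-7g thus remained far above the 3p arm everywhere, with 219 to 1546 5p reads per 3p read in mitochondria. For miR-98 the share was 0% and 0.158% in the pools and 3.13% to 11.1% in mitochondria. The lowest of these mitochondrial shares came from 4 reads in AL replicate 1. Its interval (0.858% to 7.81%) slightly overlapped that of the AL pool (0% to 0.896%). For let-7a-1 it was 0.933% and 0.740% in the pools and 1.63% to 2.44% in mitochondria. Of 10 tested let-7 hairpins, 5 (let-7d, let-7a-1, let-7g, let-7f-2 and miR-98) had a higher 3p share in every mitochondrial library than in both pools and none a lower one, where 25% of 128 hairpins with both arms tested were higher and 18% lower. Of these 5, let-7g and miR-98 were tested only because their 3p arms passed the filter through the mitochondrial libraries. The count is therefore not independent of the filter. For let-7f-2 the separation lay within counting error. Its share was 0.0356% and 0.0353% in the pools. The lowest mitochondrial share was 0.0372%, from 4 reads in AL replicate 2 (0.0101% to 0.0952%).

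**Figure D3:**
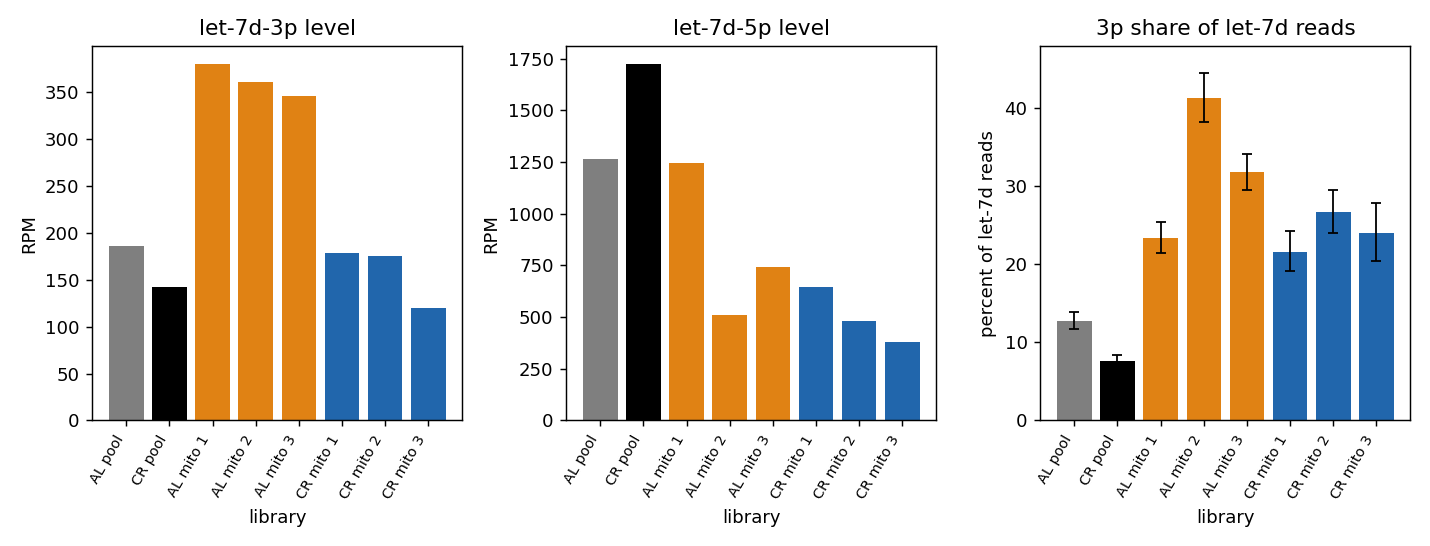
let-7d-3p level, let-7d-5p level (both RPM) and the 3p arm's percent of let-7d reads in each library; bars are single libraries and error bars in the right panel are 95% Clopper-Pearson intervals. The 3p level is highest in the 3 AL mitochondrial libraries (346 to 380.3 RPM), and the share is above both pools in all 6 mitochondrial libraries.

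The log2 ratio of 3p to 5p was fitted for those 128 hairpins. The fit between fractions made the same assumption about the pools. Between fractions the ratio rose for 4 of the 10 let-7 hairpins and fell for none, beside 22.7% of all hairpins higher and 14.8% lower. It rose by 5.77 for let-7g (SE 0.65, limma, adjusted p = 0.00026), the 2nd largest increase of the 128. For miR-98 it rose by 3.57 (SE 0.47, adjusted p = 0.000484, limma), for let-7d by 1.80 (SE 0.43, adjusted p = 0.00887) and for let-7a-1 by 1.29 (SE 0.38, adjusted p = 0.0253). The let-7a-1 call was lost without AL replicate 3 (limma, adjusted p = 0.0634) or CR replicate 3 (0.0506). Over the alternatives the let-7g value lay between 4.49 and 6.23 and the miR-98 value between 2.34 and 4.28. In the pools the 3p arms of both lay below the added 1 RPM, so the size of these values depends on it. Both hairpins were in this test only because their 3p arms passed the filter through the mitochondrial libraries. Without the filter both had an adjusted p of 0.00386 in limma. With a pseudocount of 4 RPM, let-7e (1.41) and let-7f-1 (0.95) were called as well, with 28.9% of all hairpins called higher. let-7e-3p averaged 2.60 RPM in mitochondria and 4.58 RPM in the pools, and let-7f-1-3p 3.12 and 3.96 RPM. The added 4 RPM was thus about as large as these arms, and such ratios mostly follow the 5p arm. The other hairpins lay between -0.20 (let-7b) and 1.05 (let-7e). The 5p arms of let-7a, let-7c and let-7f are each made from several hairpins, so the ratios of let-7a-1, let-7c-1, let-7f-1 and let-7f-2 have a shared denominator. A ratio can also rise through a lower 5p arm. Between fractions let-7a-5p had -1.60 (limma, adjusted p = 0.00226) and let-7a-1-3p -0.30, not called. The values were -1.26 for let-7d-5p (limma, adjusted p = 0.0138) and 0.54 for let-7d-3p, not called on this scale. For let-7g the 5p arm had -1.98 and the 3p arm 3.78. For miR-98 the 5p arm had -1.38 (limma, adjusted p = 0.00566) and the 3p arm 2.20. The 5 hairpins with the smallest p were miR-193a (6.10), miR-192 (3.81), let-7g, miR-221 (4.87) and miR-98.

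**Figure D4:**
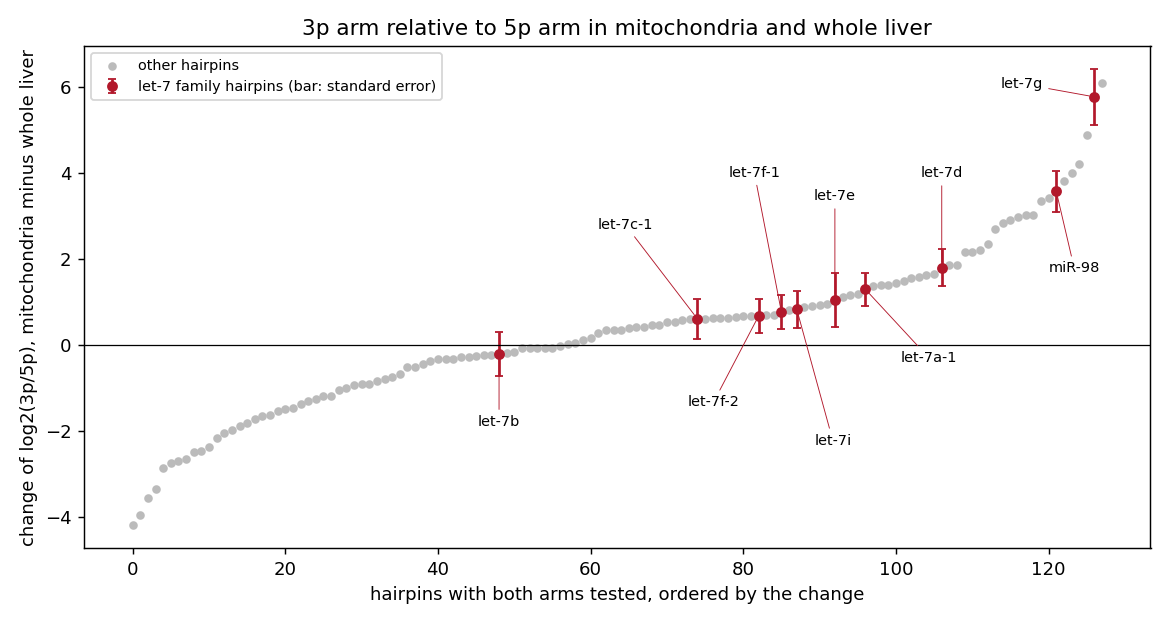
Difference in the log2 ratio of 3p to 5p, mitochondria minus whole liver, for 128 hairpins in rank order; let-7 family hairpins are red with standard errors and the others grey. let-7g (5.77) is second from the right, miR-98 (3.57) and let-7d (1.80) follow, and let-7b (-0.20) lies near 0.

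Between the diets, no arm ratio in mitochondria was called in limma (0% of 128 hairpins, with 11 at an unadjusted p under 0.05, let-7b among them). The let-7d ratio was lower under CR by a fitted -0.55 (SE 0.40, limma, adjusted p = 0.728); it was -0.25 without AL replicate 2 and -0.85 without AL replicate 1. In plain shares, let-7d-3p took 32.2% ± 9.0 (SD, n = 3) of let-7d reads under AL and 24.1% ± 2.54 (SD, n = 3) under CR. The CR minus AL difference was -8.06 percentage points (exact permutation test, two-sided, p = 0.3). With 3 libraries a side this test cannot go below 0.1. Leaving out 1 library in turn gave -12.5 to -3.48 points. let-7b had the largest fitted ratio difference of the family (1.14, SE 0.43, adjusted p = 0.501, limma), from 3 to 11 reads of its 3p arm per mitochondrial library. The 5 hairpins with the smallest p were miR-671, miR-30b, miR-17, miR-106b and miR-330.

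Summed over the family, the 3p arms were a small share of all let-7 reads. They took 0.326% in the AL pool and 0.230% in the CR pool. In mitochondria they took 0.802%, 1.54% and 1.08% under AL and 0.768%, 0.760% and 0.892% under CR, so all 6 mitochondrial shares lay above both pools. In AL mitochondria let-7d-3p alone made up 75.5% ± 6.20 (SD, n = 3) of the family's 3p reads. Under CR the mitochondrial share was 60.5% ± 2.12 (SD, n = 3), and the diets did not overlap. As let-7d-3p is most of these reads, this is not independent of the diet difference in its own level given above.

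The names whose levels moved most like those of let-7d-3p over the 8 libraries were miR-17-3p, miR-143-5p, miR-335-5p, the unannotated novel_331 and miR-28a-3p. Likeness was the root mean square difference of log2(RPM + 1) after each name was centred on its own mean, and it was 0.28 to 0.33 for these 5 against a median of 0.89 over 416 names. novel_331 had at most 4 reads in a library. miR-17-3p, the 3p arm of its hairpin like let-7d-3p, had 18.5, 10.05 and 13.4 RPM in AL mitochondria, 7.49, 6.34 and 3.74 RPM in CR mitochondria and 6.99 and 8.02 RPM in the pools. For let-7g-3p the nearest names were miR-29a-5p (0.43), miR-193a-3p (0.51), novel_192 (0.58), miR-192-3p (0.58) and miR-500-3p (0.64), against a median of 1.93. In mitochondria miR-29a-5p had 39.7 to 103 RPM, against 6.58 and 7.40 RPM in the pools. These distances are descriptions over 8 libraries.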

How the data were processed

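The deposited values are RPM: the authors gave 1 table per library, with reads per miRNA name scaled to a total of 1000000, names at 0 left out, and a column called tpm, per the file headers. Reads were mapped with Bowtie to mm9, per the submitters' processing notes; the version, the allowed mismatches and the handling of multiple hits are not given in the sources used here. All deposited RPM values (100%, within 0.01 read) were whole multiples of the smallest in their library, so read counts were recovered by division. Groups came from the labels.

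Names with at least 1 RPM in at least 3 of 8 libraries (417) were fitted with limma 3.58.1 (R 4.3.3) on log2(RPM + 1), with Benjamini-Hochberg adjustment over all of them and a threshold of 0.05. Diet was compared over 6 mitochondrial libraries, fraction over all 8 with diet as a term. Arm ratios used log2(3p + 1) minus log2(5p + 1) with both arms tested. edgeR 4.0.16 (quasi-likelihood) and DESeq2 1.42.0 on recovered reads, other scales, pseudocounts (0.5, 4 RPM), filters (none, 10 RPM) and leaving out each mitochondrial library were alternatives. Fits were tested on simulated data. Python 3.11.15, pandas 2.3.3, scipy 1.17.1 and matplotlib 3.10.9 were used.

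The members, the lists (5p arms, miRNAs of the same primary transcripts, names sharing a seed, cell type markers) and the tests were chosen with earlier results of these data known. Named miRNAs were the members, their 5p arms, those lists, 5 nearest names and 5 hairpins with the smallest p. The cell markers that moved with let-7d-3p were named after their values were seen. Sequences and positions are RefSeq's and GENCODE M21's on GRCm38, not the authors' build.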

Additional observations from a re-analysis of the deposited data

How the results depend on the processing

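Across 518 values of single arms or hairpins under alternatives, 473 kept their direction and their side of the threshold, 9 passed it newly, 2 no longer passed it and 34 changed sign; none of the 34 had passed. The number of 3p arms called for diet was 1 with DESeq2 and 1 with the replicate block, in both cases let-7d-3p, against 0. For fraction it was 1 with a filter of 10 RPM, where only 4 members were tested, against 2, and 3 with TMM factors, DESeq2 size factors, miR-122 left out, edgeR or DESeq2, let-7d-3p being the third. The replicate numbers were not shown to pair the samples: same-numbered AL and CR mitochondrial libraries deviated from their group means with r = 0.357, 0.0862 and 0.103, and only replicate 1 correlated best with its own number. Under the replicate block let-7d-3p had a diet difference of -1.22 (limma, adjusted p = 0.0467), the calls over all names were 1 higher and 4 lower against 1 and 1, and no arm ratio was called.

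Sign changes for diet were let-7e-3p at -0.10 (pseudocount 0.5 RPM) and -0.0686 (without miR-122). For fraction let-7a-1-3p was 0.12 with TMM factors, 0.11 without miR-122, 0.19 in edgeR and 0.0586 in DESeq2, and let-7b-3p 0.11, 0.10, 0.23 and 0.11 in the same order and 0.0143 with DESeq2 size factors. In edgeR let-7f-2-3p was 0.0783, let-7f-1-3p 0.0605 and let-7c-1-3p 0.0523. With a pseudocount of 4 RPM the diet arm ratios of let-7a-1 and let-7c-1 were 0.0127 and 0.16. The cause of these changes was not tested. Leaving out 1 library in turn gave diet ranges of -0.87 to 0.19 (let-7f-2-3p), -0.26 to 0.25 (let-7i-3p), -0.19 to 0.52 (let-7b-3p) and -0.51 to 0.79 (let-7e-3p), and for arm ratios -0.16 to 0.13 (let-7a-1), -0.25 to 0.15 (let-7f-2) and -0.0415 to 0.99 (let-7e). Over all names the diet calls ranged from 0 to 10 against 2, and the interaction gave 129 calls without a filter, none of them a member, and 0 otherwise. Depth limits let-7c-1-3p, miR-98-3p and the pool level of let-7g-3p, each resting on a few reads per library.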
